A study of Drosophila melanogaster with 14 samples.

Results

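Oxidative phosphorylation is carried by 5 protein complexes whose subunits come from both the nuclear and the mitochondrial genome. The genes described here were all FlyBase symbols that begin with ND-, UQCR-, ATPsyn or Sdh, with COX and a number, or with mt: followed by the name of a protein-coding respiratory gene. This rule found 101 of the 16073 gene identifiers listed in either set of count tables, some of them with no counts. Of these, 88 were nuclear and 13 mitochondrial. The nuclear genes comprised 63 subunits, 24 paralogs whose symbol carries a final L, and 1 assembly factor, Sdhaf3 of complex II. They were spread over 2L (16), 2R (17), 3L (20), 3R (20), X (13) and chromosome 4 (2).

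Complex I oxidises NADH and complex II, succinate dehydrogenase, oxidises succinate. Complexes III and IV pass the electrons on to oxygen while protons are pumped, and complex V, the ATP synthase, uses the proton gradient to make ATP. The mitochondrial genome encodes membrane subunits of complexes I, III, IV and V and none of complex II, so the assembled chain needs transcripts of both genomes. Mitochondrial transcripts are made in the mitochondrial matrix, outside the nucleus. Developing muscle and neurons are both known for a high demand for ATP.

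The data were read counts per gene from RNA of INTACT-purified embryonic nuclei of Drosophila melanogaster, a method that captures nuclei through a tag on their envelope. There were 8 wild-type libraries, 2 per group, from mesoderm of genotype twi-INTACT or from neuronal nuclei of genotype elav>INTACT, each at stages 14-17 and at stages 10-13. The other 6 were mesodermal nuclei of stages 14-17, 3 from embryos of genotype twi-INTACT, Mef2>Nslmb,GFP-Ubx (degraded) and 3 from control embryos of genotype twi-INTACT; UAS-Nslmb,GFP-Ubx. All 6 carried GFP-tagged Ubx, a Hox transcription factor, and Nslmb is a ubiquitin ligase adaptor that binds GFP and removes the tagged protein. The controls carried the Nslmb transgene without the Mef2 driver, which is active in muscle and its precursors. The labels do not say whether replicates were separate embryo collections, so p-values measure the spread between these libraries, which may be technical. In bulk samples, fewer cells of a type and less RNA per cell cannot be told apart.

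Libraries held 12970816 to 36150646 assigned counts in the wild type and 24314883 to 31033963 in the degradation set. Ubx mRNA stood at 62.7, 79.1 and 89.8 CPM (counts scaled by library size) in degraded libraries 1 to 3, against 68.9, 60.3 and 71.0 CPM in controls, and since Nslmb acts on protein it does not check the labels. A list of 10 muscle markers summed to 58250 and 63640 CPM in mesoderm at stages 14-17, against 11260 and 12070 CPM in neuronal nuclei. At stages 10-13 the same list summed to 8229 and 7254 CPM in mesoderm, against 11510 and 13500 CPM in neuronal nuclei, so it did not set mesoderm apart there. A list of 10 neuronal markers summed to 238 and 261 CPM in mesoderm against 928 and 631 CPM in neuronal nuclei at stages 10-13, but to 1130 and 864 CPM against 846 and 623 CPM at stages 14-17, with Syx1A at 0 in every wild-type library. Control 3 stood apart from the other controls and near the degraded libraries in many of the values below. Neuronal library 2 of stages 14-17 also stood apart, with a sum of 2186 CPM over 10 midgut markers against 337 CPM in neuronal library 1. Several results that rest on these libraries are also given without them, but results by complex and most values of single genes are given only with them.

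The level of a gene is its CPM after TMM scaling, and levels of different genes are compared per kb of exon. The median mitochondrial gene stood above the median nuclear one in every group. Among nuclear subunits that no other gene overlaps by 40% or more, the median level per kb was 53.1 CPM in mesoderm at stages 14-17, 36.5 in mesoderm at 10-13, 126 in neuronal nuclei at 14-17 and 77.2 at 10-13 (57 genes). The median of the 13 mitochondrial genes was 476, 394, 2507 and 1255 CPM per kb in the same groups. In degraded libraries the medians were 32.2 CPM per kb over 56 nuclear subunits and 115.1 CPM per kb over the mitochondrial genes, against 48.2 and 451 in controls. mt:CoIII, a core subunit of complex IV, was the highest mitochondrial gene in all 6 groups. ND-B8, a complex I subunit, was the lowest nuclear subunit, at 0 to 0.298 CPM in any library.

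Per kb, the highest nuclear transcripts were often those of the ATP synthase. ATPsynC, which forms the membrane ring, and ATPsynbeta, the catalytic subunit, led complex V, with ATPsynC at 370 CPM per kb in mesoderm and 746 in neuronal nuclei at stages 14-17. UQCR-C1, a core subunit, led complex III in every group. COX7B led complex IV in mesoderm and COX5A in neuronal, degraded and control nuclei. Complex II was led by SdhC, a membrane anchor, or SdhA, the flavoprotein that holds the succinate site. Complex I was led by ND-49, a core subunit, or by ND-MLRQ. ND-MLRQ led only in wild-type groups, and its span of 6611 bp holds 538 bp of exon. Intron-rich genes are relatively higher in the wild-type tables, and whether intron reads raised its level per kb was not tested.

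Summed over all nuclear members, the level was 5672 and 5387 CPM in mesoderm against 9133 and 14180 CPM in neuronal nuclei at stages 14-17. At stages 10-13 it was 3343 and 3551 CPM in mesoderm against 6107 and 8046 CPM in neuronal nuclei. The mitochondrial genes summed to 17620 and 11660 CPM in mesoderm against 29650 and 71350 CPM in neuronal nuclei at stages 14-17, and to 11830 and 9104 CPM against 15550 and 39670 CPM at stages 10-13. Mesodermal libraries thus lay below neuronal ones of the same stages in both sums, and the 2 neuronal libraries of a group lay further apart than the 2 mesodermal ones. The log2 ratio of mitochondrial to nuclear sums was 1.37 ± 0.37 in mesoderm and 2.02 ± 0.45 in neuronal nuclei at stages 14-17, and 1.59 ± 0.33 and 1.82 ± 0.67 at stages 10-13 (SD, n = 2). Ratios of mesoderm and neuronal nuclei overlapped at stages 10-13 and did not at 14-17. The difference of the means at 14-17 was -0.64, or -0.32 and -0.96 without neuronal libraries 2 and 1.

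**Figure D1:**
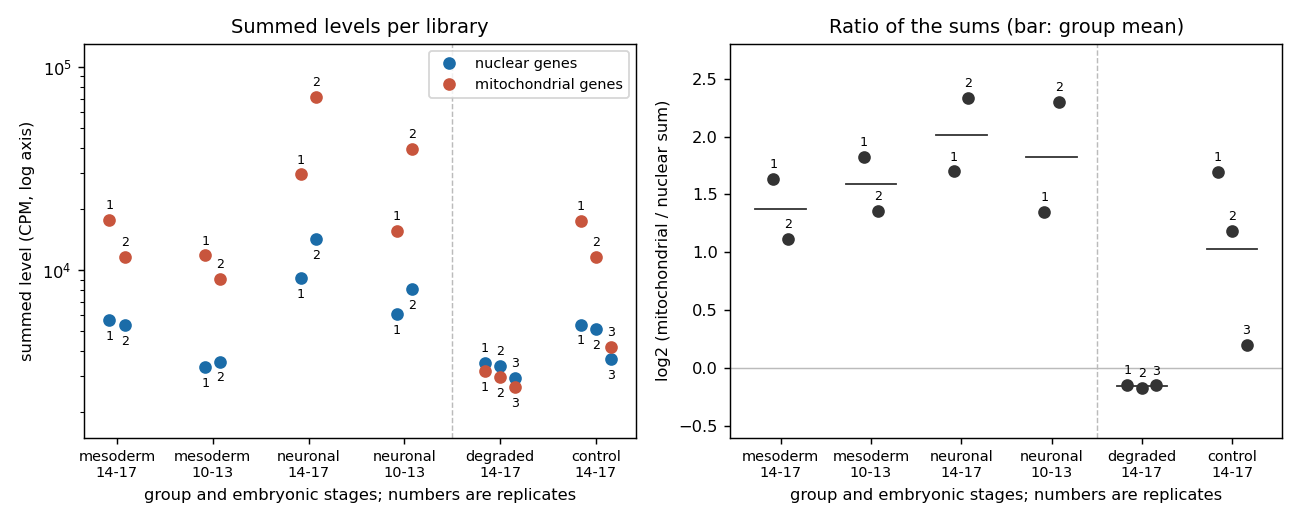
Left, summed level of the 88 nuclear genes (86 in the degradation set) and the 13 mitochondrial genes in each library, in CPM on a log axis; right, log2 of the mitochondrial over the nuclear sum, with a bar at the group mean. The degraded libraries lie at log2 ratios of -0.14 to -0.17, and control 3, at 0.20, lies between them and the other controls, at 1.70 and 1.19.

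Mesoderm held less of most nuclear oxidative phosphorylation transcripts than neuronal nuclei at stages 10-13. Of 68 nuclear genes tested, 52 were lower in mesoderm and 0 higher by the quasi-likelihood test of edgeR, with p-values adjusted by Benjamini and Hochberg's method. Of all 10549 genes tested, 29.5% were lower and 23.2% higher. Scaling by library totals alone shifted the median of all genes by -0.25 on the log2 scale and gave 1664 higher and 3707 lower over all genes, against 2451 and 3115 with TMM. The median change of the nuclear genes was -1.11 on the log2 scale, against -0.08 over all genes. The other nuclear members had too few counts to be tested, and all but 3 of those were paralogs with a final L. Without mesoderm library 1 or 2 or neuronal library 2 fewer were called, both here and over all genes, with 1 sample left in the arm. The median of the nuclear genes was -0.97 or -1.09 without mesoderm library 1 or 2, and -1.32 or -0.78 without neuronal library 1 or 2.

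Every complex took part. Of the genes tested that carry no final L, complex I had 27 of 32 lower, complex II 4 of 5, complex III 3 of 5, complex IV 8 of 8 and complex V 10 of 11. ATPsyngamma, the rotor shaft of the ATP synthase, had the largest change, with 46.0 and 56.7 CPM in mesoderm against 161 and 198 CPM in neuronal nuclei. Its log2 change was -1.81 ± 0.31 (SE, adjusted p = 0.00242). ND-18, a complex I subunit, had 7.48 and 10.4 CPM in mesoderm against 25.6 and 35.1 CPM in neuronal nuclei, a log2 change of -1.76 ± 0.30 (adjusted p = 0.00229). In neither gene did the libraries of the 2 tissues overlap.

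The next largest changes were those of Sdhaf3 (-1.71 ± 0.35), ATPsynE (-1.64 ± 0.35) and ND-B12 (-1.62 ± 0.31), on the log2 scale. ND-39, a complex I subunit whose span another gene overlaps by 56.8% and which is therefore uncertain, had the smallest adjusted p of the members, 0.00102, at a log2 change of -1.59 ± 0.22. Among the highest transcripts, ATPsynC had 336 and 356 CPM in mesoderm against 846 and 993 CPM in neuronal nuclei (log2 change -1.41 ± 0.29, adjusted p = 0.00568). ATPsynbeta did not pass the test, with 456 and 468 CPM in mesoderm against 676 and 767 CPM in neuronal nuclei (-0.64 ± 0.34, adjusted p = 0.142). Its groups did not overlap either.

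Of the 13 mitochondrial genes, 3 were lower in mesoderm at stages 10-13 and 0 higher, a share near the 29.5% of all genes. These were mt:ND4 (-1.92 ± 0.59), mt:ND5 (-1.71 ± 0.60) and mt:CoII (-1.52 ± 0.55), subunits of complexes I and IV. The median log2 change of the 13 was -1.18, against -1.11 for the nuclear genes, and their standard errors had a median of 0.58 against 0.27. Without neuronal library 2 the medians were -0.37 for mitochondrial and -0.78 for nuclear genes, and without neuronal library 1 they were -1.65 and -1.32. mt:CoI, the catalytic core of complex IV, had 3523 and 2675 CPM in mesoderm against 5438 and 12160 CPM in neuronal nuclei (-1.51 ± 0.57, adjusted p = 0.0559). Neuronal library 2 held over 2 times as much as neuronal library 1, so the neuronal spread was wide. The count was 0 without mesoderm library 1 or 2 and 7 without neuronal library 1. Without neuronal library 2 the 1 gene called was mt:ATPase8, higher in mesoderm.

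**Figure D2:**
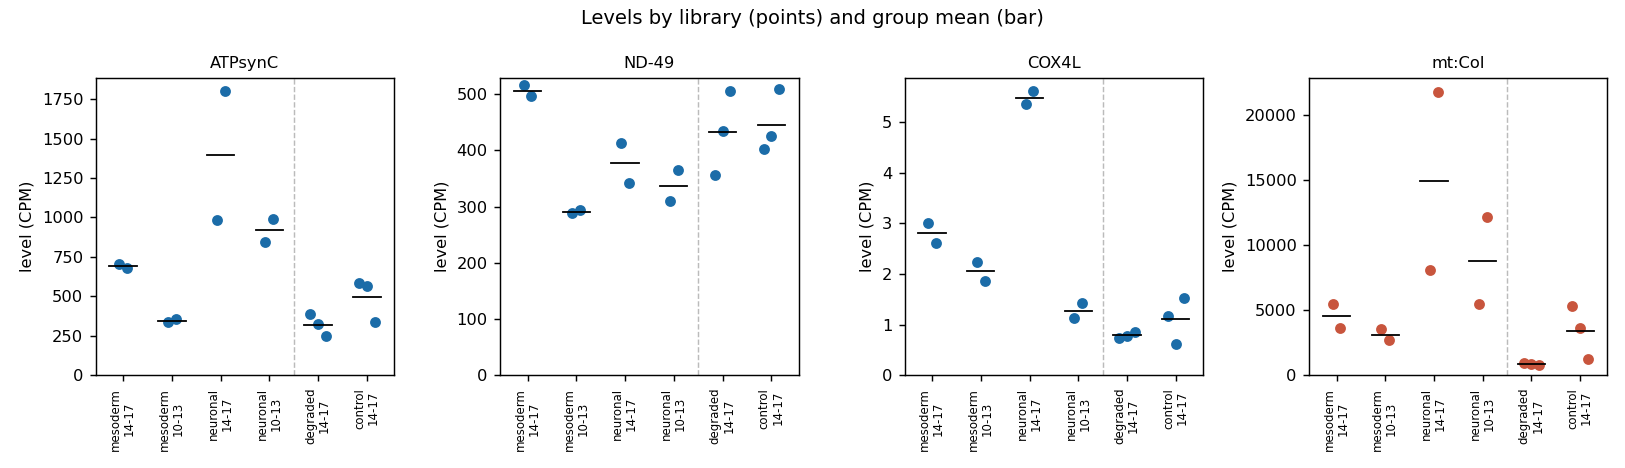
Level in CPM of 4 genes in each library (points) with the group mean (bar), the dashed line parting the 2 sets of tables, whose levels are not compared. ATPsynC and mt:CoI lie lower in mesoderm than in neuronal nuclei, ND-49 is highest in mesoderm at stages 14-17 among the wild-type groups, and COX4L is highest in neuronal nuclei at stages 14-17.

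At stages 14-17 the nuclear genes were again lower in mesoderm, as were most mitochondrial genes. Of 68 nuclear genes tested, 53 were lower and 1 was higher, where 22.1% of all genes were lower and 19% higher. Scaling by library totals alone shifted the median of all genes by -0.30 and gave 1375 higher and 3554 lower over all genes, against 2004 and 2336 with TMM. The median log2 change was -1.20, or -1.01 without neuronal library 2, against -0.12 over all genes. The 49 nuclear genes lower at both stages made up 94.2% of those called at stages 10-13 and 92.5% of those called at 14-17. How often calls recurred over all genes was not worked out, so these shares have no background to be read against. Without mesoderm library 1 or 2, with 1 sample left in the arm, far fewer were called, both here and over all genes. The median of the nuclear genes was then -1.21 or -1.19. Without neuronal library 2, the one high in midgut markers, somewhat fewer were called, again both here and over all genes. Of the 54 calls, 7 held under every alternative tried, those of ND-18, ND-30, ND-39, ND-B14.7, COX7A, ATPsynD and ATPsynO.

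Complex IV and V were lower throughout, in 8 of 8 and 11 of 11 genes tested, complex I in 27 of 32, complex II in 3 of 5 and complex III in 3 of 5. COX7A, a small subunit of complex IV, had 73.6 and 65.1 CPM in mesoderm against 196 and 298 CPM in neuronal nuclei, a log2 change of -1.83 ± 0.32 (adjusted p = 0.00538). ATPsynO, part of the stalk that holds the ATP synthase still, had 83.7 and 77.6 CPM in mesoderm against 209 and 357 CPM in neuronal nuclei (-1.81 ± 0.30, adjusted p = 0.00461). For both genes every mesodermal library lay below every neuronal one. The complex I genes ND-B12, ND-18 and ND-B14.7 each changed by -1.79 on the log2 scale. SdhA, UQCR-11, ND-ACP, ND-AGGG and ND-MLRQ did not pass the test, at -0.18 to -0.46.

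ND-49 went the other way in its values. It had 517 and 496 CPM in mesoderm against 412 and 342 CPM in neuronal nuclei at stages 14-17, a log2 change of 0.42 ± 0.18 with an adjusted p of 0.0944. At stages 10-13 it had 289 and 293 CPM in mesoderm against 309 and 365 CPM in neuronal nuclei (-0.21 ± 0.18, adjusted p = 0.353). Its mesodermal libraries lay above the neuronal ones at the later stages and below them at the earlier ones. ND-49 lies on chromosome 4 at chr4:568296-571554 (minus strand, BDGP6), and no other gene overlaps it. Among the nuclear members without a final L it alone had a positive log2 change at stages 14-17.

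Of the mitochondrial genes, 8 of 13 were lower in mesoderm at stages 14-17 and 0 higher, with a median log2 change of -1.96, or -1.23 without neuronal library 2. mt:ND6 had 10.6 and 4.86 CPM in mesoderm against 39.7 and 76.6 CPM in neuronal nuclei (-2.91 ± 0.62, adjusted p = 0.0103). mt:CoII had 1445 and 976 CPM in mesoderm against 3914 and 8228 CPM in neuronal nuclei (-2.33 ± 0.56, adjusted p = 0.0154). In all 13 genes the mesodermal and neuronal libraries did not overlap, but mt:ATPase8 lay higher in mesoderm. This count was not worked out over all genes and is not read as a result. Neuronal library 2 held over 2 times the sum of library 1. mt:ND2 (-2.54), mt:ND4 (-2.48), mt:ND5 (-2.15), mt:ND3 (-1.96), mt:CoI (-1.71) and mt:CoIII (-1.56) were the others called. mt:ND4L, mt:ND1, mt:Cyt-b and mt:ATPase6 did not pass the test, at log2 changes of -2.23 to -1.46, and mt:ATPase8 was at 0.88 ± 0.58. The number called was 1 or 0 without mesoderm library 1 or 2, 12 without neuronal library 1 and 4 without neuronal library 2.

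Some other transcripts moved with these genes, at both stages or at 1 of them. The ribosomal protein genes summed to 54830 and 52440 CPM in mesoderm against 129100 and 176000 CPM in neuronal nuclei at stages 14-17, and to 36970 and 39140 CPM against 61660 and 88510 CPM at stages 10-13. The 6 epidermal markers summed to 1609 and 1481 CPM in mesoderm against 1017 and 1582 CPM in neuronal nuclei at stages 14-17, and to 336 and 386 CPM against 3759 and 3406 CPM at 10-13. All 6 were lower in mesoderm at 10-13 and 1 at 14-17, and 5 fell with stage in neuronal nuclei. The mitochondrial, nuclear and ribosomal protein sums were lower in mesoderm at both stages, and the part of ribosomal protein, epidermal or carried-over cytoplasmic RNA in the results was not tested. Of 8 subunits of the chain whose names fall outside the symbol rule, 5 were lower in mesoderm at stages 14-17 and 6 at stages 10-13, where 22.1% and 29.5% of all genes were lower. They included levy (-2.06 ± 0.29) and cype (-1.71 ± 0.27) of complex IV at stages 14-17, and RFeSP, the Rieske protein of complex III (-1.48 ± 0.23), sun (-1.49 ± 0.25) and levy (-1.68 ± 0.29) at 10-13.

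Genes that act around the chain had mixed counts, to be read against the 22.1% of all genes lower and 19% higher at stages 14-17, and the 29.5% lower and 23.2% higher at 10-13. The citric acid cycle list at 14-17, and the assembly factor and mitochondrial DNA and RNA lists at 10-13, lay near these shares. Of 8 assembly factors tested, 6 were lower in mesoderm at stages 14-17 and 2 at stages 10-13, among them Cox17, a copper chaperone of complex IV, at -1.33 ± 0.29 and -1.04 ± 0.28. Of 15 genes of pyruvate oxidation and the citric acid cycle, 4 were lower and 1 higher at stages 14-17, and 6 were lower and 0 higher at 10-13. Mdh2, the mitochondrial malate dehydrogenase, was lower at both (-2.11 ± 0.45 and -4.68 ± 0.51), while Ogdh, a subunit of the oxoglutarate dehydrogenase, was higher at 14-17 (1.43 ± 0.24) and lower at 10-13 (-1.05 ± 0.24). Of 8 genes of mitochondrial DNA and RNA upkeep, TFAM, which packages mitochondrial DNA, mTTF, a termination factor, and PolG1, the DNA polymerase, were lower at 14-17 (-0.70, -0.93 and -0.73). At 10-13 TFAM and mTTF were lower and the protease Lon higher.

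Of 5 regulators of mitochondrial genes tested, 4 were higher in mesoderm at stages 10-13 and 2 at stages 14-17, and 0 were lower at either, where 23.2% and 19% of all genes were higher. Of these calls, those of Myc and ERR are uncertain because other genes overlap them. ewg, the fly relative of vertebrate nuclear respiratory factor, had means of 1144 CPM for mesoderm and 236 CPM for neuronal nuclei at stages 10-13 (2.28 ± 0.37). srl, the fly relative of the coactivator PGC, had means of 523 CPM for mesoderm and 159 CPM for neuronal nuclei (1.72 ± 0.24). Myc was higher at both stages (3.27 ± 0.28 at 14-17 and 3.62 ± 0.28 at 10-13), and other genes overlap its whole span.

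Within mesoderm some of the nuclear genes were higher at stages 14-17 than at 10-13. Of 68 tested, 21 rose and 0 fell, where 24.9% of all genes rose and 22.7% fell, so the count is near the background. The median log2 change was 0.59, against 0.00 over all genes, and 64 of 68 changes were positive. The 21 calls did not hold when any 1 of the 4 mesodermal libraries was left out. Over all genes the number called higher fell by much less in those fits, so the nuclear genes then lay below the background. Their median change was then 0.54 to 0.61. With the 4 mesodermal libraries alone in the fit 50 of 65 rose, where 33.8% of all genes did. Complex V had 5 of 11 higher, complex I 10 of 32, complex IV 3 of 8, complex III 2 of 5 and complex II 1 of 5.

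ATPsyngamma had 118 and 109 CPM in mesoderm at stages 14-17 against 46.0 and 56.7 CPM at 10-13, a log2 change of 1.14 ± 0.30 (adjusted p = 0.0179). ATPsynC had 706 and 678 CPM at stages 14-17 against 336 and 356 CPM at 10-13 (0.9995 ± 0.2909, adjusted p = 0.0249). ND-49 had 517 and 496 CPM against 289 and 293 CPM (0.80 ± 0.18, adjusted p = 0.00949), the smallest adjusted p among the members. In each of these genes the later libraries lay above the earlier ones. ND-B15 (1.09 ± 0.29), ATPsynE (1.03 ± 0.35) and ND-ASHI (1.02 ± 0.27) followed on the log2 scale.

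In neuronal nuclei 11 of 68 nuclear genes rose and 0 fell with stage, where 8.47% of all genes rose and 12% fell. The median log2 change was 0.72, against -0.03 over all genes. The genes called were 5 of 8 tested in complex IV and 5 of 32 in complex I, and the last was the paralog COX4L. COX7A had 196 and 298 CPM at stages 14-17 against 81.3 and 142 CPM at 10-13 (1.14 ± 0.31, adjusted p = 0.0406). COX8 had 113 and 182 CPM at stages 14-17 against 50.7 and 87.4 CPM at 10-13 (1.10 ± 0.32, adjusted p = 0.0493). The later libraries lay above the earlier ones in both genes. ND-B14.5A (1.22 ± 0.31) and COX7C (1.07 ± 0.28) were also among those that rose. The number called moved widely when single neuronal libraries were left out. The median log2 change was then 0.96 and 0.50 without libraries 1 and 2 of stages 14-17. It was 0.53 and 1.07 without libraries 1 and 2 of stages 10-13. DESeq2 called 39 nuclear genes on all libraries, where it called 12.84% of all genes higher and 12.75% lower.

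Mitochondrial genes passed the test in neither tissue between stages, with 0 called and 0 at an unadjusted p under 0.05 in both by edgeR's quasi-likelihood test. DESeq2 called 3 lower in mesoderm and 1 higher in neuronal nuclei, where it called 21.6% of all genes lower and 12.8% higher. In edgeR some neuronal calls appeared without library 1 of stages 14-17. Values for mt:CoI were 5470 and 3650 CPM at stages 14-17 against 3523 and 2675 CPM at 10-13 in mesoderm. In neuronal nuclei they were 8059 and 21740 CPM at stages 14-17 against 5438 and 12160 CPM at 10-13. The libraries of the 2 stages did not overlap in mesoderm and did in neuronal nuclei. Median log2 changes of the 13 genes were 0.28 in mesoderm and 0.90 in neuronal nuclei, and both moved with single libraries. The mesodermal median was -0.05 without library 1 and 0.50 without library 2 of stages 14-17, and 0.11 without library 2 of stages 10-13. The neuronal median was 0.15 without library 2 and 1.43 without library 1 of stages 14-17, and 0.41 and 1.93 without libraries 1 and 2 of stages 10-13.

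The difference between the 2 stage changes, mesoderm minus neuronal, was tested in the same fit. For the nuclear genes 1 of 68 was called, COX4L, which was lower, where 14.7% of all genes were lower and 20.6% higher. Without neuronal library 1 of stages 14-17 it was 5 (2 higher, 3 lower), without library 2 it was 3 (2 higher, 1 lower), and without any other library 0. For the mitochondrial genes 0 of 13 were called by edgeR's quasi-likelihood test. An unadjusted p under 0.05 was found for 2 of them, against 4978 of all 10549 genes. DESeq2 called 3 lower, where it called 17.1% of all genes lower. All 13 mitochondrial differences were below 0, with a median of -0.57 on the log2 scale, but the median was 0.11 without neuronal library 2 and -1.12 without neuronal library 1 of stages 14-17, and -0.08 and -1.62 without neuronal libraries 1 and 2 of stages 10-13. It was -0.89 without mesoderm library 1 of stages 14-17 and -0.36 without mesoderm library 1 of stages 10-13. The largest were those of mt:ND4L (-2.65 ± 1.15), mt:ND6 (-2.39 ± 0.83) and mt:ND2 (-2.18 ± 0.92), none of which passed the test.

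**Figure D3:**
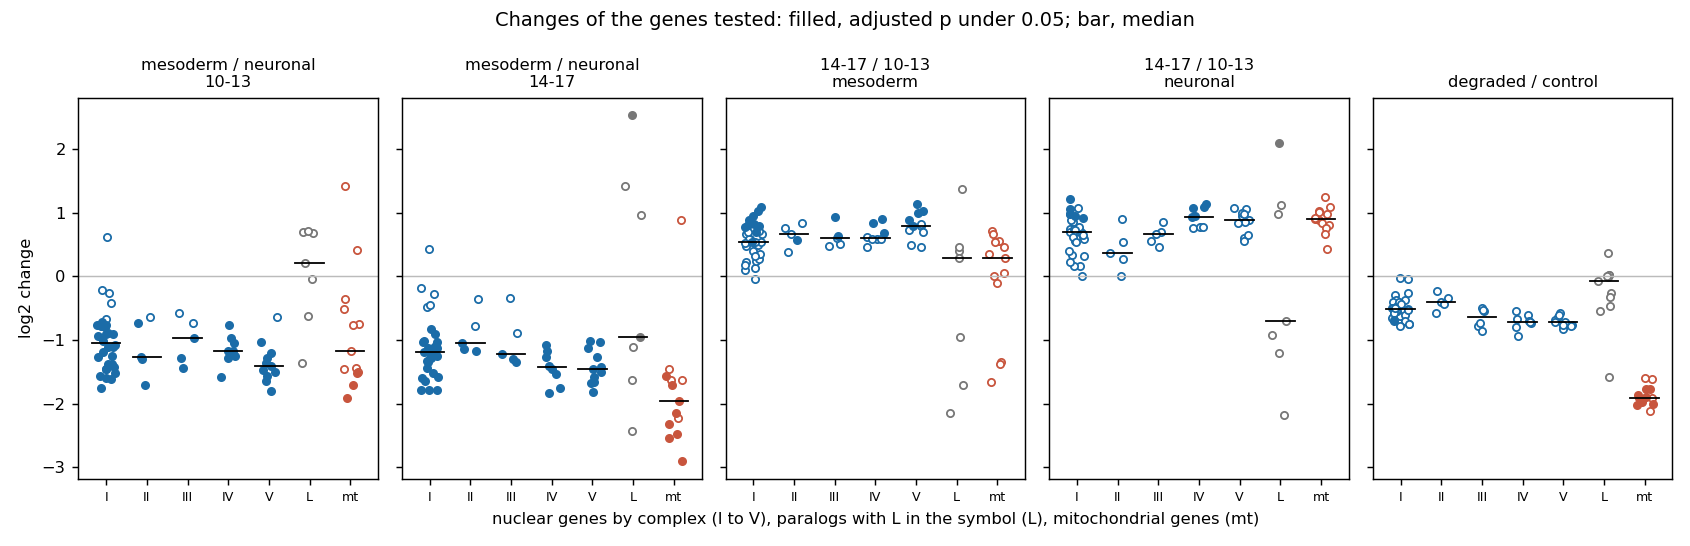
Log2 change of each gene tested in 5 comparisons, by complex for nuclear genes (I to V), for paralogs with a final L (L) and for mitochondrial genes (mt); filled points passed an adjusted p of 0.05 and bars are medians. Nuclear genes of complexes I to V lie below 0 in both tissue comparisons, except ND-AGGG at stages 10-13 and ND-49 at 14-17, while in the degraded libraries the 13 mitochondrial genes, at -2.12 to -1.60, lie below the nuclear ones.

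Some genes around the chain differed between the tissues in their stage change. Of 15 genes of pyruvate oxidation and the citric acid cycle, 7 rose in mesoderm and 0 in neuronal nuclei, where 24.9% and 8.47% of all genes rose. By the test of the difference 5 had a larger stage change in mesoderm, where 20.6% of all genes did. Ogdh averaged 614 CPM in mesoderm at stages 14-17 and 173 CPM at 10-13 (1.83 ± 0.25), and its difference between tissues was 2.48 ± 0.34. Mdh2 averaged 44.2 CPM in mesoderm at stages 14-17 and 6.12 CPM at 10-13 (2.85 ± 0.48), with a difference of 2.57 ± 0.64. Of the 5 regulators, 4 fell in mesoderm, where 22.7% of all genes fell, among them srl (-1.78 ± 0.24) and ewg (-1.69 ± 0.36), and 1, srl, fell in neuronal nuclei (-0.91 ± 0.24). Of 8 genes of mitochondrial DNA and RNA upkeep, PolG1 (-1.79 ± 0.25), the transcription factor mtTFB2 (-1.36 ± 0.25) and mTerf5 (-0.87 ± 0.19) fell in mesoderm and 0 in neuronal nuclei, and the stage changes of PolG1 and mtTFB2 were lower in mesoderm than in neuronal nuclei (-1.34 ± 0.34 and -1.07 ± 0.34), 2 of 8 where 14.7% of all genes were lower.

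The paralogs with a final L had low levels where they were counted, at most 5.62 CPM in the wild type and 6.71 CPM in the degradation set. In the wild type 12 of 24 were listed at 0 in every library, but 10 of these lie wholly inside another gene and their 0 gives no limit on their level. For the other 2, ND-24L and UQCR-14L, a count of 0 allows up to 3 counts, which was 0.083 to 0.231 CPM per library. COX4L, a paralog of a complex IV subunit gene, had 5.35 and 5.62 CPM in neuronal nuclei at stages 14-17 against 1.13 and 1.42 CPM at 10-13. It rose in neuronal nuclei by 2.10 ± 0.33 on the log2 scale (adjusted p = 0.00697), a call lost without neuronal library 1 of stages 10-13. In mesoderm it had 3.02 and 2.61 CPM at stages 14-17 against 2.24 and 1.86 CPM at 10-13 (0.46 ± 0.34, adjusted p = 0.301).

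The difference of these stage changes was -1.65 ± 0.47 (adjusted p = 0.0306). It lost its call without mesoderm library 1 or 2 of either stage or neuronal library 1 or 2 of stages 10-13. SdhBL, a paralog of the iron-sulfur subunit gene of complex II, was the 1 nuclear gene higher in mesoderm at stages 14-17. It had 2.14 and 2.70 CPM in mesoderm against 0.645 and 0.167 CPM in neuronal nuclei (2.53 ± 0.67, adjusted p = 0.0208). Those values rest on 27 and 30 counts against 24 and 5 counts. The libraries of the 2 tissues did not overlap, and the call was lost without mesoderm library 1 or 2.

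In the wild-type libraries 13 members were listed at 0 but had counts in the degradation set. Of these, 12 lie wholly inside another gene, among them the complex I subunit gene ND-MNLL and the complex III subunit gene UQCR-14, whose counts are uncertain for that reason. UQCR-14 had 31.8, 26.2 and 21.2 CPM in degraded libraries against 56.8, 48.0 and 31.2 CPM in controls. ND-MNLL had 21.0, 21.4 and 15.1 CPM in degraded libraries against 35.1, 32.8 and 22.5 CPM in controls. How those tables treat overlapping genes was not given in the sources used here, so a wild-type 0 of a nested gene is read only as listed at 0. ND-30 and COX7CL were counted in the wild type and not analysed here in the degradation set.

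The 13 mitochondrial genes differed widely in level among themselves. They lie on chromosome M between positions 240 and 12659 (BDGP6), 9 on the plus strand and 4 on the minus strand. Per kb, mt:CoIII made up 24.2 to 30.5% of their summed level in the 14 libraries and mt:CoI 17.4 to 23.6%. mt:ND2, mt:ND4L, mt:ND6 and mt:ATPase8 each made up at most 1.23% in the wild type. mt:ATPase8 shares 7 bases with mt:ATPase6 and mt:ND4L shares 1 base with mt:ND4, and reads over both genes cannot be told apart. mt:ATPase8 and mt:ND4L are also short, at 162 and 291 bp. The shares are per gene and need not be levels of separate messengers. The part of gene length, or of transcripts that span neighbouring genes, in them was not tested.

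This make-up differed between groups for the genes with the smallest shares. mt:ND2 made up 0.220 and 0.204% in mesoderm at stages 14-17 against 0.803 and 0.677% at 10-13, and mt:ND6 0.114 and 0.080% against 0.369 and 0.346%. mt:ND4L made up 0.320 and 0.099% in mesoderm at stages 14-17 against 0.859 and 1.23% at 10-13. The mesodermal libraries of the 2 stages did not overlap in these shares, which are a description with no test. mt:ATPase8 made up 0.167 to 0.295% in mesoderm and 0.029 to 0.041% in neuronal nuclei over both stages, at 1.001 to 3.41 CPM in neuronal nuclei. In the degradation set the shares were close between groups, with mt:CoIII at 27.1 to 27.9% in degraded libraries and 24.2 to 26.7% in controls.

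**Figure D4:**
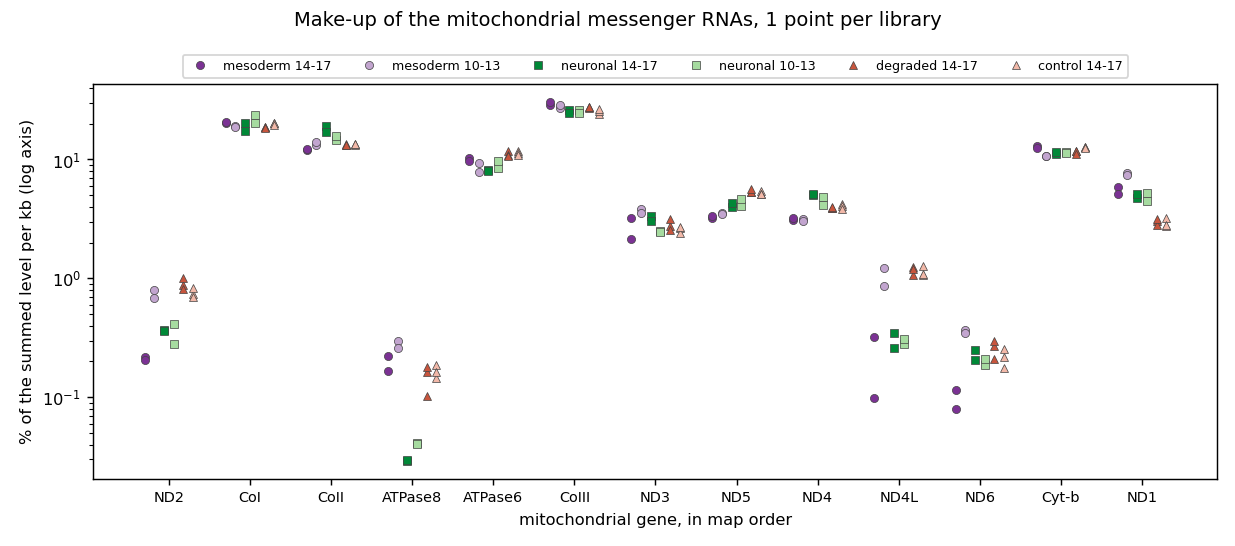
Share of each mitochondrial gene in the summed level per kb of all 13, in percent on a log axis, with 1 point per library and genes in map order. mt:ND2, mt:ND4L and mt:ND6 lie lower in mesoderm at stages 14-17 than at 10-13, and mt:ATPase8 lies lower in neuronal nuclei than in mesoderm.

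In degraded libraries most mitochondrial genes were lower than in controls, and their median change was larger than that of the nuclear genes. mt:CoI had 912, 866 and 752 CPM in degraded libraries 1 to 3 against 5319, 3601 and 1252 CPM in controls 1 to 3. mt:Cyt-b, the core of complex III, had 427, 401 and 338 CPM in degraded libraries against 2509, 1655 and 590 CPM in controls. Controls 1 and 2 lay far above all degraded libraries, and control 3 lay above them by much less. The log2 changes were -2.01 ± 0.43 for mt:CoI (adjusted p = 0.0414) and -2.03 ± 0.43 for mt:Cyt-b (adjusted p = 0.0399).

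By edgeR's quasi-likelihood test 8 of 13 mitochondrial genes were lower in degraded libraries and 0 higher, where 1.21% of all 11641 genes tested were lower and 3.57% higher. The median log2 change of the 13 was -1.91. All 13 had an unadjusted p under 0.05, as had 2891 of the 11641 genes. The libraries of the groups overlapped in none of the 13, a count not worked out over all genes and not read as a result. mt:ND4, mt:ND5, mt:ND3, mt:CoII, mt:CoIII and mt:ATPase6 were the others called, at -1.97 to -1.76. mt:ND1, mt:ND2, mt:ND4L, mt:ND6 and mt:ATPase8 did not pass, at -2.12 to -1.60. Without control 3 all 13 were called, with a median of -2.31, while 0 were called without any other 1 of the 6 libraries. In that fit without control 3, 7.53% of all genes tested were lower, against 0.0255 to 0.558% in the fits without another library. The 0 called there is therefore near the background. Control 3 was set apart partly by its values of these same genes, so the fit without it is not separate support.

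The nuclear genes gave few calls. Of 73 tested, 1 was called lower and 0 higher, a share near the 1.21% of all genes lower. An unadjusted p under 0.05 was found for 56 of the 73, against 2891 of all 11641 genes. The gene called, ND-19 of complex I, had 23.5, 22.1 and 18.9 CPM in degraded libraries against 37.1, 36.4 and 30.1 CPM in controls. Its log2 change was -0.68 ± 0.15 (adjusted p = 0.0397), its groups did not overlap, and it lost the call without any 1 library other than control 3. The median log2 change of the nuclear genes was -0.55, against -0.01 over all genes. Without control 3, 50 of 73 were called lower with a median of -0.73, where 7.53% of all genes were lower. DESeq2 called 31 on all libraries, where it called 4.24% of all genes lower and 6.17% higher.

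The complexes lay close together in these values. Median log2 changes were -0.52 in complex I, -0.40 in complex II, -0.64 in complex III, -0.72 in complex IV and -0.72 in complex V. COX8 had 20.2, 20.8 and 14.9 CPM in degraded libraries against 42.9, 41.9 and 22.1 CPM in controls (-0.93 ± 0.26, adjusted p = 0.0788). ATPsynC had 385, 321 and 248 CPM in degraded libraries against 585, 563 and 339 CPM in controls (-0.64 ± 0.23, adjusted p = 0.142). Control 3 lay within the degraded range for ATPsynC and just above it for COX8. Over all 62 nuclear subunits with counts in every library, 60 stood above their own mean in control 1 and in control 2, but 11 in control 3, and 4, 1 and 1 in degraded libraries 1 to 3.

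ND-49 departed from the other nuclear genes here too. It had 357, 434 and 506 CPM in degraded libraries against 402, 425 and 509 CPM in controls (-0.04 ± 0.16, adjusted p = 0.905). Its values overlapped between the groups and were highest in degraded library 3 and control 3, where most members were lowest within their group. ND-AGGG, a complex I subunit at 2.99 to 4.22 CPM in all 6 libraries, had a log2 change of -0.02 ± 0.20.

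**Figure D5:**
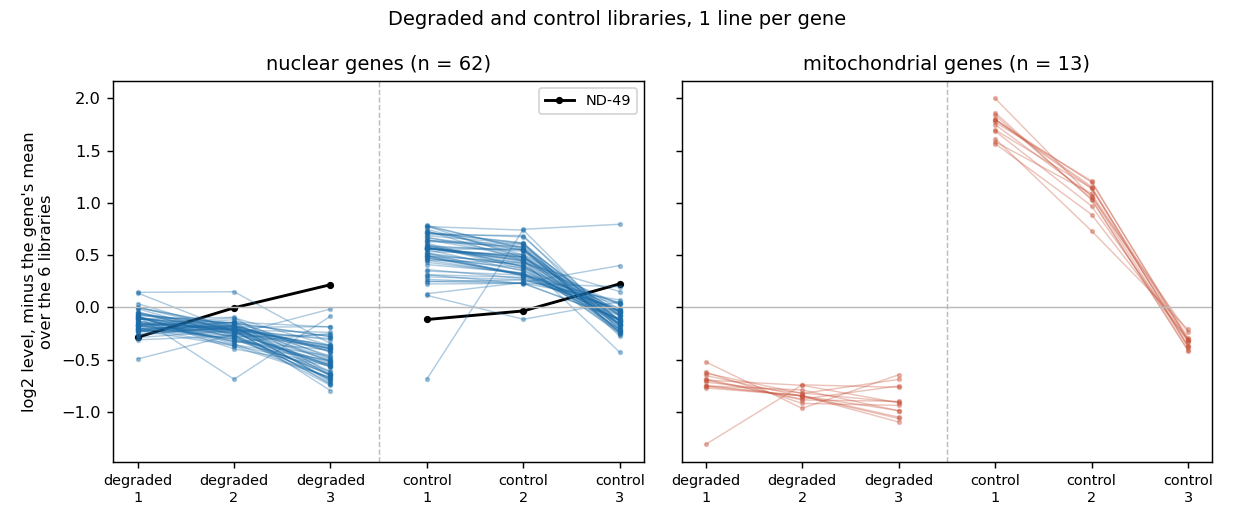
Log2 level of each subunit gene minus its mean over the 6 libraries, for 62 nuclear and 13 mitochondrial genes with counts in every library; lines join the libraries of a group and have no order in time. Degraded libraries are low and controls 1 and 2 high, with control 3 near the degraded ones, and ND-49 (black) does not follow the other nuclear genes.

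The log2 ratio of mitochondrial to nuclear sums was -0.14, -0.17 and -0.15 in degraded libraries, against 1.70, 1.19 and 0.20 in controls. Group means were -0.15 ± 0.01 and 1.03 ± 0.76 (SD, n = 3), a difference of -1.18, or -1.60 without control 3. The mitochondrial genes summed to 3179, 2990 and 2649 CPM in degraded libraries against 17540, 11680 and 4207 CPM in controls, and the nuclear ones to 3508, 3366 and 2938 CPM against 5406, 5138 and 3653 CPM. The groups overlapped in neither sum, and the 3 degraded libraries agreed closely while the 3 controls did not.

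Some other RNAs moved with these sums, and others did not. Ribosomal protein genes summed to 25450, 25480 and 19890 CPM in degraded libraries against 47080, 40960 and 24310 CPM in controls, and overlapped between the groups. Mitochondrial rRNA and tRNA genes, 24 in all, summed to 7266, 6557 and 6065 CPM in degraded libraries against 41650, 23760 and 10210 CPM in controls. Both sums placed control 3 at the low end of the controls. The 10 muscle markers summed to 45680 to 52740 CPM in degraded libraries and 49270 to 66190 CPM in controls, and 6 epidermal markers to 1904 to 2274 CPM in degraded libraries and 1104 to 1306 CPM in controls, which did not overlap. The part of these differences in the result was not tested.

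The other genes of the pathway gave few calls between degraded and control libraries. Of 7 subunits outside the symbol rule 0 were called, with a median of -0.70, and of 9 assembly factors 1 was lower, Sirup of complex II (-0.71 ± 0.16, adjusted p = 0.0431). The 15 genes of pyruvate oxidation and the citric acid cycle (median -0.37), 9 of mitochondrial DNA and RNA upkeep (-0.13), 5 regulators (-0.08) and both ATP carriers (-0.17) had 0 called.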

How the data were processed

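RNA of INTACT-purified nuclei was analysed from 14 libraries. The deposited tables hold whole-number read counts per gene, as the authors left them before any scaling. The submitters' processing notes name HTSeq, a read counter, FastQC, and the builds BDGP6 and dm6. Tool versions, aligner, annotation and strand setting were not given in the sources used here. Both sets of tables were fitted separately and their levels are not compared, since intron-rich genes are relatively higher in the wild-type tables. In the degradation set, 7.36 to 8.87% of reads had no feature and 42.8 to 48.6% were not unique, and these stayed out of all totals.

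Members were matched by symbol, and the members and gene lists were chosen with earlier results of these data known. Genes passed filterByExpr (minimum count 10, minimum total 15), which left 10549 and 11641 genes in the wild-type and degradation sets. Levels are CPM after TMM scaling. Groups were compared with edgeR 4.0.16 quasi-likelihood tests (limma 3.58.1, R 4.3.3), with 4 residual degrees of freedom in each set, and adjusted p-values (Benjamini-Hochberg, over all genes of the set) under 0.05 were called. The procedure was tested on simulated data first. Tables and figures used Python 3.11.15, pandas 2.3.3, numpy 2.4.6 and matplotlib 3.10.9.

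The text names all mitochondrial genes, the highest member per kb of each complex, up to 5 members with the largest called change in each direction per comparison, paralogs with a final L, and up to 3 list genes with the smallest adjusted p. ND-39, ND-AGGG, UQCR-11, ND-ACP and some examples were added after their values were seen. Exon lengths, positions and overlaps came from the Ensembl annotation of BDGP6. Members overlapped by other genes over 40% or more of their span, among them ND-15, ND-39, COX6B and ATPsyndelta, are uncertain, since reads of overlapping genes cannot be told apart without strand. A count of 0 was read against a limit of 3 counts, which covers counting error only.

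Alternatives were DESeq2 1.42.0, other size factors, library totals, no filter, mitochondrial genes removed, only the groups compared, uncertain members left out, the replicate number as a block, and each library left out in turn.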

Additional observations from a re-analysis of the deposited data

Results flagged for a closer look

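COX4L, a paralog of a complex IV subunit gene, was the 1 nuclear or mitochondrial oxidative phosphorylation gene whose stage change differed between the tissues by the interaction test of edgeR. The difference, mesoderm minus neuronal, was -1.65 on the log2 scale (SE 0.47, adjusted p = 0.0306). The values rest on 38 and 29 counts in mesoderm at stages 14-17 and 36 and 32 at 10-13, and on 199 and 168 counts in neuronal nuclei at stages 14-17 and 36 and 59 at 10-13. The difference lay between -1.88 and -1.55 over the 14 alternatives tried, and 6 of them, each without 1 library, ended the call.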

How the results depend on the processing

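No gene called changed direction under any alternative, but few calls held under all of them: 23 of 52 nuclear genes for mesoderm against neuronal nuclei at stages 10-13, 7 of 54 at stages 14-17, and 0 in the other comparisons. The cause of the shifts below was not tested. Leaving out 1 library leaves a lone sample in a wild-type arm, which is assumed to vary like the other groups. Numbers called over all genes moved widely in these fits too. Over these fits the nuclear and mitochondrial numbers called were 25 to 54 and 0 to 7 at stages 10-13, and 8 to 59 and 0 to 12 at 14-17. At stages 10-13 without neuronal library 2 the 1 mitochondrial gene called was higher, not lower. They were 0 to 0 and 0 to 0 for stage in mesoderm, 0 to 52 and 0 to 6 for stage in neuronal nuclei, 0 to 5 and 0 to 3 for the difference, where the 3 nuclear calls without neuronal library 2 of stages 14-17 were mostly higher, and 0 to 50 and 0 to 13 for degraded against control. The difference of log2 ratios of mitochondrial to nuclear sums ranged from -0.88 to 0.071 between the stage changes, from -0.71 to 0.24 for mesoderm against neuronal at stages 10-13, from -0.96 to -0.32 at 14-17, and from -1.60 to -0.85 for degraded against control.

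DESeq2 called 8 mitochondrial genes at stages 10-13 (7 lower), 3 for stage in mesoderm, 1 for stage in neuronal nuclei, 3 for the difference and 13 for degraded against control, and 39 nuclear genes for stage in neuronal nuclei and 31 for degraded against control. Library totals gave 7 mitochondrial genes at stages 10-13 and 3 for degraded against control, and 11 and 7 nuclear genes for stage in mesoderm and in neuronal nuclei. With only the groups compared, the mitochondrial numbers were 8 at stages 10-13, 5 at 14-17 and 3 for stage in mesoderm, and the nuclear ones 50 for stage in mesoderm and 1 in neuronal nuclei. For stage in neuronal nuclei RLE size factors gave 23 nuclear genes and removal of mitochondrial genes 21. Without a filter 13 mitochondrial genes were called for degraded against control. By the median level per kb, the log2 ratio for mesoderm against neuronal at stages 14-17 was -1.07, against -0.64 by sums.

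Replicate numbers were tried as a replicate block. Same-numbered degraded and control libraries deviated together with r of 0.213, 0.0899 and 0.271, and control 2 correlated better with degraded 1 (0.103), so the numbers were not taken as pairs; wild-type values were -0.143 to 0.139. With the block the nuclear numbers were 53, 52, 25, 22, 1 and 37 (stages 10-13, stages 14-17, stage in mesoderm, stage in neuronal nuclei, difference, degraded), and the mitochondrial ones 1, 5, 0, 0, 0 and 12.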
